A study of Sus scrofa with 32 samples.

Results

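CD2- γδ T cells are circulating T cells that are abundant in young pigs. A γδ T cell carries a T cell receptor of γ and δ chains in place of the α and β chains of CD4 and CD8 αβ T cells, and signals through the same CD3 complex. In pigs, γδ T cells are divided by the adhesion receptor CD2, and the CD2- cells mostly lack CD8α as well, whereas many CD2+ cells carry it. The cells described here were the blood cells that fell on the CD2- side of that division in single-cell RNA-seq data.

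Members were chosen by transcript counts. A barcode of a blood library was a member when it passed limits on its unique molecular identifiers (UMIs, each standing for 1 captured transcript), its mitochondrial share and its genes (at least 550), and held at least 1 UMI of CD3E (a CD3 chain) and of TRDC (the δ chain constant region), and 0 UMIs of CD2, CD4, CD8B and the B cell genes CD79B and MS4A1. The levels of these 7 genes therefore follow from the choice and are given only as descriptions. The rule found 298 cells in pig 1 and 350 in pig 2, in all 648 of 13243 blood cells and of 48629 cells in all 8 libraries.

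The study profiled 2 mixed-breed pigs of 7 weeks, without treatment. Each gave peripheral blood mononuclear cells (PBMCs) and 3 dissections of ileum, namely ileum with Peyer's patches (PP), without them (non-PP), and whole ileum. Each of the 8 droplet libraries was sequenced in 4 runs, counted here as 1 library, so n = 2 pigs throughout. The PBMC libraries, from blood drawn into cell preparation tubes, held 36465389 and 38240907 UMIs for pigs 1 and 2. Pig 1 was labelled female and pig 2 male. The PBMC libraries shared 66 cell barcodes, where 59.4 would be shared by barcodes drawn at random.

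The steps of the rule showed where the cells came from. In pig 1, 3442 of 6443 cells held CD3E, 627 of these held TRDC, 321 of these had no CD2, 317 also had no CD4 or CD8B, and 298 had no B cell transcript. In pig 2 the corresponding numbers were 3025 of 6800, 614, 381, 374 and 350. Members made up 4.63% of PBMCs in pig 1 (95% exact binomial interval 4.13 to 5.17) and 5.15% in pig 2 (4.63 to 5.70), and 8.66% and 11.6% of cells with CD3E. Intervals here and below cover counting error only.

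Members were compared with other blood cells found by the same kind of rule. CD2+ γδ T cells held CD3E, TRDC and CD2 with the same genes at 0 otherwise, and numbered 249 and 183 in pigs 1 and 2. CD4 αβ T cells (207 and 358) and CD8 αβ T cells (430 and 657) held CD3E with CD4 or CD8B and no TRDC. A B cell gate (1339 and 1045 cells) showed how much transcript from other cells a droplet picks up. Members had fewer UMIs than the other T cells, with medians of 2156 and 2311 per cell against 4365 and 3496 in CD2+ γδ T cells, 3246 and 3476.5 in CD4 αβ T cells and 3828.5 and 4208 in CD8 αβ T cells. The rule asks for genes at 0 in members and for a UMI of CD2, CD4 or CD8B in the other gates, which itself favours shallow cells among members, so these medians do not measure RNA content. Summed over cells, members held 828661 and 902259 UMIs. When each cell was thinned to the UMI minimum of the rule, members held a median of 600 and 580 genes and CD2+ γδ T cells 601 and 585.

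A CD2 count of 0 did not by itself show absence of CD2 from a cell. CD2 was also at 0 in 13% and 6.98% of CD4 αβ T cells and in 21.2% and 11.9% of CD8 αβ T cells. Among those of 1500 to under 3000 UMIs, the depth of most members, the shares were 15.6% and 11.8% for CD4 αβ T cells and 31.1% and 20.4% for CD8 αβ T cells. Likewise TRDC was found in 6.72% and 2.78% of B gate cells, which should lack it. In members TRDC stood at 2502 and 2689 CPM (UMIs per 1000000 of the cells' summed UMIs) and CD3E at 851 and 1035 CPM, against 1712 and 2240 CPM of TRDC and 578 and 717 CPM of CD3E in CD2+ γδ T cells.

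RHEX and BLK, the other proposed markers, did not enter the rule, but they were proposed with results of these data known, so their shares are a description and no independent check of the label. RHEX (ENSSSCG00000015638) encodes a membrane adaptor of erythropoietin receptor signalling in red cell precursors. BLK (ENSSSCG00000027568, Sscrofa11.1 chr14:14688489-14745946) encodes a Src-family kinase best known from B cell receptor signalling. RHEX was detected in 77.5% of members in pig 1 (95% interval 72.3 to 82.1) and in 84.0% in pig 2 (79.7 to 87.7). It was detected in 7.23% and 13.1% of CD2+ γδ T cells, 0.483% and 0.559% of CD4 αβ T cells, 0.465% and 1.07% of CD8 αβ T cells, and 0.747% and 1.24% of B gate cells, whose median depth was higher (3582 and 4633 UMIs). BLK was detected in 50.7% and 66.6% of members, 10.4% and 12% of CD2+ γδ T cells, and 32.6% and 44.9% of B gate cells. Both shares lay above those of every other T cell gate in both pigs.

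The B cell gate also holds BLK, so B cell transcripts were counted in the members. The rule itself sets CD79B and MS4A1 to 0, which leaves 9 other B cell markers named in the files. These summed to 16.9 and 18.8 CPM in members, against 1022 and 946.8 CPM in the B gate. CD79A was the most abundant of them, at 9.65 and 13.3 CPM. In pig 1, 5 of the 9 were at 0 in members and in pig 2, 4 were. Removing cells with CD79B or MS4A1 can also lower these 9 in members, so their low level may follow in part from the choice of cells. BLK alone stood at 315 and 523 CPM in members and at 105 and 121 CPM in the B gate.

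SAMSN1 and GATA3 followed RHEX in members. SAMSN1 (chr13:179431494-179509359), an adaptor that dampens lymphocyte signalling, was detected in 50.3% and 48.0% of members against 12.4% and 26.2% of CD2+ γδ T cells. GATA3 (chr10:63367684-63397977), a transcription factor of early T cell and type 2 programmes, was detected in 49.0% and 63.1% of members against 27.7% and 25.1%. CD8A went the other way, with 18.5% and 6.86% of members against 69.1% and 31.1% of CD2+ γδ T cells. IL26, a cytokine gene (chr5:32568189-32583278), was found in 1 of 298 members in pig 1 and in 0 of 350 in pig 2. The contrasts in RHEX, BLK, SAMSN1, GATA3 and CD8A between the γδ gates also stood after thinning, where RHEX was found in 71.8% and 75.7% of members and in 4.82% and 6.56% of CD2+ γδ T cells.

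**Figure D1:**
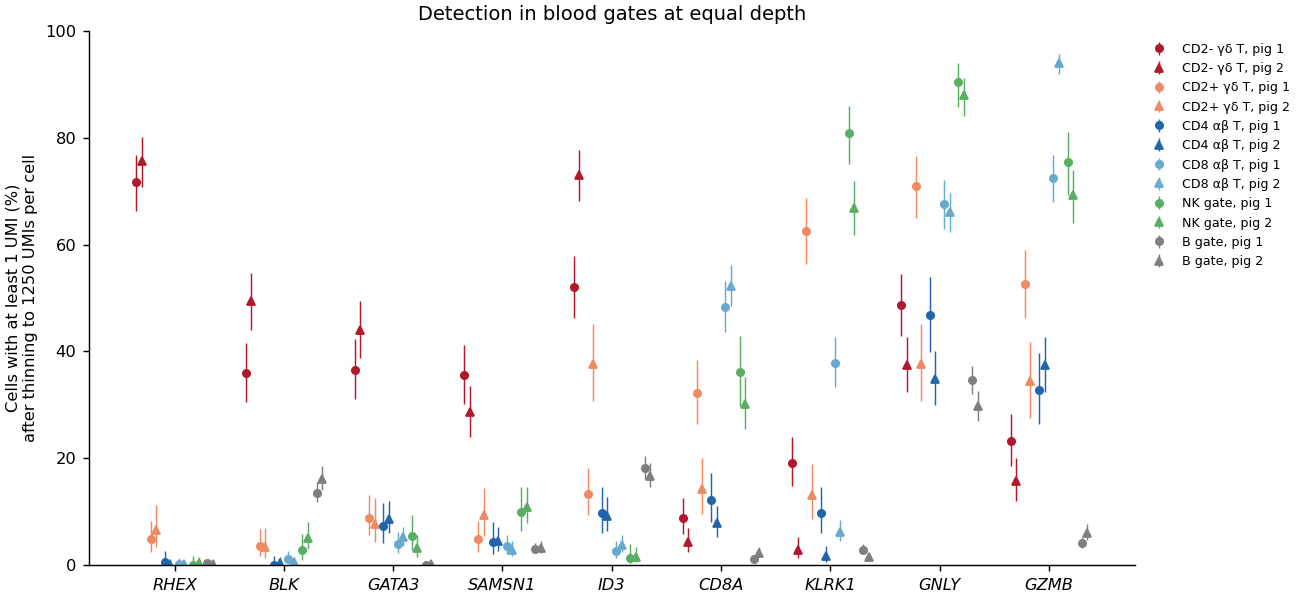
The y axis is the percentage of cells with at least 1 UMI of each gene after every cell was thinned to the UMI minimum of the rule, for 6 gates in blood, with circles for pig 1, triangles for pig 2 and bars for exact 95% binomial intervals. RHEX, at 71.8% and 75.7% of CD2- γδ T cells, lay far above the other gates in both pigs, while CD8A lay at 8.72% and 4.29% there and at 32.1% and 14.2% in CD2+ γδ T cells.

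RHEX was also counted in cells just inside and just outside the rule. With TRDC at exactly 1 UMI, members numbered 25 and 21 and held RHEX in 48.0% and 66.7%, whereas cells that failed only by having no TRDC numbered 487 and 182 and held it in 1.64% and 3.85%. Cells that failed only by 1 CD2 UMI numbered 90 and 53 and held RHEX in 10.0% and 22.6%. Cells that failed only by lacking CD3E numbered 67 in each pig and held it in 55.2% and 49.3%. Members of under 1500 UMIs, the shallowest, held RHEX in 64.7% of 17 and in 8 of 10, and those of at least 4000 UMIs, 36 and 23 cells, in 38.9% and 56.5%. CD8A was found in 44.4% and 17.4% of these deepest members.

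Genes were next compared between members and CD2+ γδ T cells of the same blood, the question being what apart from CD2 separates the 2 kinds of γδ T cell. UMIs were summed over the cells of each gate and pig, and edgeR's quasi-likelihood test was applied to 7241 genes that passed a filter on low counts. Of these, 14 genes (0.193%) were higher in members at an adjusted p under 0.05 and none was lower. At an unadjusted p under 0.05, 363 genes were higher and 440 lower, and DESeq2 called 52 (42 higher, 10 lower). With the pig as a block, which uses the fact that both gates came from the same animals, 312 genes (4.31%) were called, 179 higher (2.47%) and 133 lower (1.84%), all 14 among them. RHEX and BLK had been named from earlier results of these data, so their place among the 14 is not independent support. Members had fewer UMIs than CD2+ cells, and among cells of 2000 to 6000 UMIs 11 genes were called, 10 higher and 1 lower, 6 of the 14 among them. These were RHEX, BLK, SRGN, GATA3, GPR183 and ENSSSCG00000032017. The 8 not called there were SLC25A24 (adjusted p = 0.0599), PIK3AP1 (0.0601), ENSSSCG00000031278 (0.0627), FAM89A (0.0776), ITM2B (0.104), DPP4 (0.104), CASS4 (0.117) and MAF (0.137). All 8 kept their direction, with log2 fold changes of 1.55 for SLC25A24 (1.79 in all cells), 1.58 for PIK3AP1 (1.71), 4.33 for ENSSSCG00000031278 (4.83), 1.77 for FAM89A (2.58), 1.04 for ITM2B (1.32), 2.53 for DPP4 (3.19), 2.51 for CASS4 (2.81) and 3.41 for MAF (3.85). GPR183, still called, was at 1.65 against 2.57.

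Among the named genes with a symbol called without the block, RHEX, of the kinases and signalling adaptors, had the largest fold change. RHEX was at 1248 and 1258 CPM in members of pigs 1 and 2 and at 54.7 and 105 CPM in CD2+ γδ T cells. The 2 pigs nearly coincided in members, and the gates did not overlap. The log2 fold change was 4.03 (SE 0.32, adjusted p = 0.00883). BLK was at 315 and 523 CPM against 25.2 and 53.0 CPM, also without overlap (log2 fold change 3.50, SE 0.40, adjusted p = 0.0294). Of the 20 signalling genes tested, these 2 were higher and none lower, and the list's median log2 fold change was 0.48 against -0.02 over all genes.

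With the pig as a block, 6 of the 20 signalling genes were higher and 3 (LYN, FGR and PTPN22) lower. SAMSN1 was at 314 and 306 CPM in members against 28.1 and 87.5 CPM (log2 fold change 2.51, SE 0.45), with an adjusted p of 0.109 without the block and 0.000212 with it. Members of both pigs lay above the CD2+ cells of both.

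Among the T cell receptor, CD3 and receptor-proximal genes, 0 of 8 tested passed without the block, and 3 were higher and 2 lower with it. ZAP70, the kinase that docks on the activated CD3 complex, was at 325 and 399 CPM in members against 175 and 184 CPM (log2 fold change 1.05, SE 0.18, adjusted p = 0.0011 with the block and 0.109 without). LCK, the Src-family kinase that starts signalling in αβ T cells and binds the CD4 and CD8 coreceptors, was at 173 and 83.1 CPM against 422 and 410 CPM (-1.67, SE 0.29, adjusted p = 0.000789 with the block and 0.109 without). The gates did not overlap for either kinase. CD247, the CD3 ζ chain, was at 965 and 1297 CPM in members against 459 and 822 CPM (adjusted p = 0.00792 with the block). TRAT1, an adaptor that stabilises the receptor, was at 118 and 75.4 CPM against 248 and 371 CPM (adjusted p = 0.00567 with the block). The median log2 fold change of the 8 was 0.50.

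Transcription factors of T cell fate included 2 of 16 tested that were higher without the block. GATA3 was at 317 and 505 CPM in members against 58.9 and 88.7 CPM (log2 fold change 2.53, SE 0.29, adjusted p = 0.0294). MAF, a factor of γδ and helper T cell effector programmes, was at 54.3 and 99.8 CPM against 4.91 and 6.16 CPM (3.85, SE 0.42, adjusted p = 0.0294). The members of both pigs lay above the CD2+ cells of both pigs for both genes. With the block ID3, an inhibitor of E proteins induced by T cell receptor signals, was also higher at 812 and 1420 CPM against 133 and 558 CPM (adjusted p = 0.00133), and 5 factors were lower. TBX21, the T-bet gene of cytotoxic and type 1 cells, was one of them at 41.0 and 8.87 CPM against 148 and 33.3 CPM (adjusted p = 0.0352 with the block), and EOMES, its relative, another at 16.9 and 4.43 CPM against 40.0 and 38.2 CPM (adjusted p = 0.0331 with the block). The list's median log2 fold change was -0.52.

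Migration genes were represented by GPR183, the receptor for oxysterols that guides lymphocytes within lymphoid tissue, at 174 and 185 CPM in members against 21.0 and 43.1 CPM (log2 fold change 2.57, SE 0.33, adjusted p = 0.039). It was the 1 of 8 chemokine receptors and relatives called without the block. CCR4, a receptor of skin-homing and type 2 T cells, was at 53.1 and 26.6 CPM against 2.81 and 7.40 CPM (adjusted p = 0.00195 with the block, 0.116 without). Of 10 genes of circulation and lymph node homing, 0 passed without the block and 3 were higher with it. One was IL7R, the IL-7 receptor α chain, at 92.9 and 86.5 CPM against 16.1 and 59.2 CPM (adjusted p = 0.0301 with the block). CCR7, the lymph node homing receptor, did not pass in either fit, at 51.9 and 74.3 CPM against 21.7 and 136 CPM, values that overlapped.

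Cytotoxic and natural killer genes lay mostly the other way. Of 13 cytotoxic identifiers tested, 1 was higher without the block. This was SRGN, serglycin, the proteoglycan that packs secretory granules, at 2527 and 3019 CPM in members against 591 and 956 CPM (log2 fold change 1.88, SE 0.24, adjusted p = 0.039). With the block 3 were lower, and the list's median log2 fold change was -1.16. GZMB, granzyme B, was at 392 and 236 CPM against 774 and 661 CPM and did not pass (adjusted p = 0.345, and 0.0628 with the block). Of 11 natural killer receptors and adaptors, 0 passed without the block and 6 were lower with it, with a median log2 fold change of -1.20. FCGR3A, CD16, was at 398 and 241 CPM against 872 and 653 CPM (adjusted p = 0.00311 with the block), and FCER1G, the Fc receptor γ chain, at 273 and 101 CPM against 597 and 311 CPM (0.00325 with the block).

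KLRK1, encoding the receptor NKG2D, differed as much between pigs as between gates. It was at 446 CPM in members of pig 1 and 22.2 CPM in those of pig 2, against 1084 and 176 CPM in the CD2+ cells, so that the gates overlapped. Its adjusted p was 0.772 without the block and 0.00289 with it.

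The remaining genes named by size of change were a mixed group. DPP4, the peptidase CD26, was at 45.9 and 34.4 CPM in members against 4.91 and 3.70 CPM (log2 fold change 3.19, SE 0.41). CASS4, a scaffold of the Cas adhesion family, was at 39.8 and 55.4 CPM against 4.91 and 9.86 CPM, and FAM89A at 67.6 and 59.9 CPM against 9.82 and 12.3 CPM. SLC25A24, a mitochondrial ATP-Mg carrier, was at 140 and 139 CPM against 35.8 and 48.1 CPM. PIK3AP1, an adaptor that links receptors to PI3K, was at 186 and 228 CPM against 54.0 and 77.7 CPM, and ITM2B, a membrane protein, at 929 and 1183 CPM against 400.5 and 467 CPM. None of these overlapped between gates, and their adjusted p-values lay between 0.0294 and 0.0456. The other 2 of the 14 were identifiers without a symbol, and one of them, ENSSSCG00000032017, was at 2292 and 2531 CPM in members against 82.8 and 239 CPM (log2 fold change 3.96, SE 0.51, adjusted p = 0.039).

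The fit with the block called further genes in both directions. Higher in members were FUT7, a fucosyltransferase (65.2 and 103 CPM against 2.10 and 16.0 CPM, adjusted p = 0.000215), TNFSF11, the cytokine RANKL (26.5 and 39.9 CPM against 1.40 and 8.63 CPM, 0.0136), and IL9R, the IL-9 receptor (24.1 and 34.4 CPM against 3.51 and 4.93 CPM, 0.011). FCER1A, the IgE receptor α chain, was at 262 and 35.5 CPM against 11.9 and 6.16 CPM (0.000106), so that its members of pigs 1 and 2 lay far apart from each other. Lower in members were LY6D, a small membrane-anchored protein, at 2.41 and 0 CPM against 25.2 and 56.7 CPM (ratio 31.7, 8.50 to 266, adjusted p = 0.0174), and the GZMA identifier ENSSSCG00000016902, for granzyme A, at 8.45 and 1.11 CPM against 42.1 and 55.5 CPM (log2 fold change -3.32, adjusted p = 0.0106). Neither overlapped between the gates. Also called lower was CXCL10, an interferon-induced chemokine, at 4.83 and 151 CPM against 61 and 806 CPM (4.97e-05). The gates overlapped for CXCL10, pig 2 being higher than pig 1 in both. CD1D, the lipid-presenting molecule, was at 35.0 and 5.54 CPM against 97.5 and 59.2 CPM (0.0165).

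**Figure D2:**
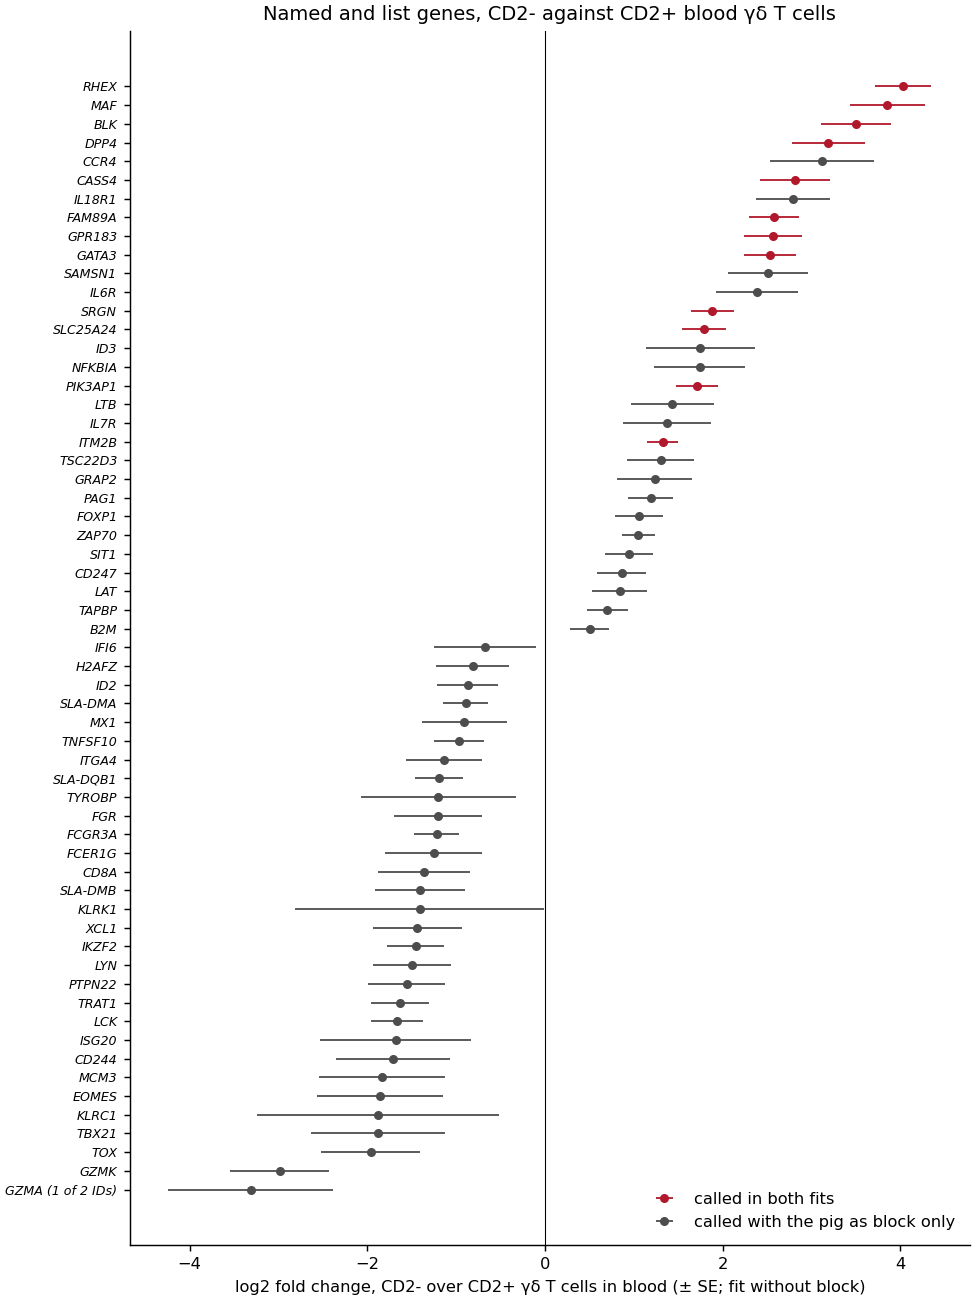
The x axis is the log2 fold change of CD2- over CD2+ γδ T cells of blood (fit without the block, bars are SE) for the named genes called in both fits (red) and the genes called only with the pig as a block (grey) that belong to a list other than those of cell type markers, so that FCER1A, for one, is not drawn. Among the genes drawn, RHEX, MAF and BLK lie farthest to the right at 4.03, 3.85 and 3.50, and the grey genes lie on both sides of 0.

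No member of the following lists passed without the block. Of 15 coreceptor and costimulation genes, 0 passed and 1 (CD8A, adjusted p = 0.0365) was lower with the block, with a median log2 fold change of -0.80. Of 5 tested MHC class II genes, 0 passed and 3 were lower with the block, with a median of -0.94. Of 17 cell cycle genes, 0 passed and 2 were lower with the block, with a median of -1.11. For 18 interferon-stimulated genes the counts were 0 and 3 lower with the block, for 16 cytokine receptors 0 and 2 higher, for 10 cytokines and chemokines 0, with 1 higher and 1 lower under the block, and for 9 immediate early genes 0 and 2 higher. IL18R1 and IL6R, receptors for IL-18 and IL-6, were the higher pair of cytokine receptors, at 71.2 and 68.7 CPM against 6.31 and 16.0 CPM (adjusted p = 0.000414 with the block) and at 107 and 132 CPM against 11.9 and 38.2 CPM (0.00041). The scavenger receptors of the WC1 and SCART family, which mark γδ T cells of cattle and pigs, were named for only 2 of 4 listed genes, and 0 of these passed the filter on low counts.

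Transcripts of other cells were measured beside these results. Red cell markers summed to 17071 and 3932 CPM in members against 6488 and 291 CPM in CD2+ γδ T cells, nearly all of it HBB, β-globin. They were concentrated in few cells, since 7 members of pig 1 and 2 of pig 2, each with 20 or more HBB UMIs, held 12890 of 13846 and 3190 of 3502 HBB UMIs. Without such cells in any gate 15 genes were called, 14 higher and 1 lower, the same 14 among them. Monocyte markers summed to 506 and 910 CPM against 444 and 1610 CPM, with LYZ the most abundant, and 5 and 1 of 14 at 0 in members. Natural killer markers summed to 1309 and 549 CPM in members, 2884 and 1639 CPM in CD2+ cells and 9412 and 8007 CPM in the natural killer gate, with KLRF1 and KLRD1 at 0 in members of both pigs. Platelet markers summed to 90.5 and 361 CPM against 84.2 and 364 CPM. Dendritic cell markers summed to 272 and 48.8 CPM against 24.6 and 35.7 CPM and consisted mainly of FCER1A, with FLT3 and XCR1 at 0. The part of these transcripts in single genes other than HBB was not tested.

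The number of calls depended on each of the 4 sums. Leaving out the members of pig 1 gave 6 calls and those of pig 2 gave 3, and leaving out the CD2+ cells of pig 1 gave 1 and those of pig 2 gave 34. In each case the lone sum was assumed to vary like the others.

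Against CD4 αβ T cells of the same blood, the question was which genes separate members from the helper lineage. Of 7241 genes, 89 (1.23%) were called, 64 higher (0.884%) and 25 lower (0.345%) in members. With the pig as a block 541 (7.47%) were called, 298 higher (4.12%) and 243 lower (3.36%), all 89 among them. RHEX was at 1248 and 1258 CPM against 1.13 and 1.23 CPM, where the CD4 αβ cells held 1 and 2 UMIs, and the ratio of summed levels was 1050 (95% counting interval 359.9 to 5110). BLK was at 2.25 and 3.69 CPM in CD4 αβ T cells (log2 fold change 7.01, SE 0.52, adjusted p = 0.00221). FCER1A was at 0 in CD4 αβ T cells of both pigs and at least 121-fold higher in members by a floor of 3 counts over the gate (adjusted p = 0.0469), and IL9R was likewise at 0 and at least 24.8-fold higher (adjusted p = 0.017). Members held 217 UMIs of FCER1A in pig 1 and 32 in pig 2 (262 and 35.5 CPM). The limit for FCER1A, taken over both pigs, therefore rests mostly on pig 1 and would be lower from pig 2 alone.

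Signalling and fate genes were again among those higher than in CD4 αβ T cells. ZAP70 was at 325 and 399 CPM in members against 101 and 118 CPM (log2 fold change 1.71, adjusted p = 0.0118), CD247 at 965 and 1297 CPM against 373 and 395 CPM (1.55, adjusted p = 0.0479), and SAMSN1 at 314 and 306 CPM against 30.4 and 35.1 CPM (3.22, adjusted p = 0.0259). GATA3 was at 70.9 and 65.3 CPM in CD4 αβ T cells (2.59, adjusted p = 0.0125), ID3 at 82.2 and 97.3 CPM (3.62, adjusted p = 0.0492), and MAF at 22.5 and 17.2 CPM (1.97, adjusted p = 0.0427). All 6 were without overlap between the gates. Among named genes of other kinds, WFDC2, a secreted protease inhibitor, was at 57.9 and 61 CPM in members and at 0 and 1.23 CPM in CD4 αβ T cells, a ratio of 75.0 (20.2 to 628), and SYTL3, which tethers secretory vesicles, was at 53.1 and 48.8 CPM against 1.13 and 1.85 CPM (log2 fold change 4.92, adjusted p = 0.0161).

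CD40LG, ICOS and CD6 were lower in members. CD40LG, the ligand by which helper T cells activate B cells, was at 4.83 and 4.43 CPM in members against 83.3 and 109 CPM (log2 fold change -4.38, SE 0.78, adjusted p = 0.0427). ICOS, a costimulatory receptor, was at 4.83 and 4.43 CPM against 63.0 and 68.3 CPM (-3.82, SE 0.51, adjusted p = 0.0182), and CD6, a costimulatory scavenger receptor, at 13.3 and 9.97 CPM against 104 and 76.3 CPM (-2.95, adjusted p = 0.0267). These were the 3 of 15 coreceptor and costimulation genes that passed, all lower, 4 of the 15 had a log2 fold change above 0, and the list's median was -1.64 against -0.01 over all genes. With the block 8 were lower and 1 higher. CD28 was at 1.21 and 4.43 CPM against 51.8 and 29.6 CPM and passed with the block (adjusted p = 0.00707, 0.0848 without). LCK (-1.92, adjusted p = 0.0319), TRAT1 (-1.85, adjusted p = 0.0427) and FCGR3A (-2.00, adjusted p = 0.0181) were lower too, and so was GZMK, granzyme K, at 2.41 and 1.11 CPM against 55.2 and 44.9 CPM, a ratio of 27.9 (9.33 to 137). The natural killer and cytotoxic lists as a whole were not lower. Of 11 natural killer receptors and adaptors, 7 had a log2 fold change above 0, at a median of 0.68. In that list 1 was lower and 0 higher without the block, and 1 lower and 3 higher with it. Of 13 cytotoxic identifiers, 1 was higher and 1 lower, at a median of -0.06, and 2 were higher and 2 lower with the block. Of 10 homing genes 0 passed without the block, and with it 1 was higher and 1 lower. The lower one was CCR7, at 51.9 and 74.3 CPM in members against 232 and 286 CPM in CD4 αβ T cells without overlap (log2 fold change -2.05, adjusted p = 0.24 without the block and 0.0129 with it). Leaving out 1 sum at a time gave 21 and 11 calls without the members of pigs 1 and 2, and 4 and 2 without the CD4 αβ cells of pigs 1 and 2. Monocyte markers summed to 506 and 910 CPM in members and to 115 and 337 CPM in CD4 αβ T cells, where CEBPB was the most abundant and 6 and 1 of 14 were at 0. Of 11 monocyte markers tested, 10 had a log2 fold change above 0, at a median of 1.90, 1 (CST3, a secreted protease inhibitor) was called higher (153 and 142 CPM against 28.1 and 31.4 CPM, 2.28, adjusted p = 0.0181), and 6 were with the block. Their part in these differences was not tested.

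Against CD8 αβ T cells, the cytotoxic lineage of the same blood, 137 genes (1.89%) were called, 99 higher (1.37%) and 38 lower (0.525%) in members, and 1115 (15.4%) with the pig as a block, 525 higher (7.25%) and 590 lower (8.15%). RHEX was at 0.916 and 1.93 CPM in CD8 αβ T cells (log2 fold change 9.60, SE 0.44, adjusted p = 0.000116) and BLK at 5.04 and 3.59 CPM (6.61, SE 0.47, adjusted p = 0.00152). TNFSF11, at 26.5 and 39.9 CPM in members, and SLC4A4, a bicarbonate transporter at 21.7 and 31.0 CPM, were both at 0 in CD8 αβ T cells of both pigs, hence at least 65.1-fold and 51.6-fold higher in members (adjusted p = 0.0209 and 0.0274). GPR183 was at 13.3 and 10.2 CPM (3.93, adjusted p = 0.00239), CCR4 at 1.83 and 1.38 CPM (4.59, adjusted p = 0.0102), IL6R at 7.33 and 11.9 CPM (3.59, adjusted p = 0.0103) and IL18R1 at 8.70 and 14.9 CPM (2.52, adjusted p = 0.018) in CD8 αβ T cells. Members were thus higher than CD8 αβ T cells in both pigs for all of these receptors, but not for their lists as a whole. Of 8 chemokine receptors and relatives, 2 were higher and 0 lower, yet 6 had a log2 fold change below 0, at a median of -0.66. With the block 2 of the 8 were higher and 3 lower. Of 16 cytokine receptors, 2 were higher and 1 lower, at a median of 0.04, and 2 were higher and 3 lower with the block.

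GZMB, PRF1, GZMK and 1 GZMA identifier were lower in members than in CD8 αβ T cells. GZMB was at 392 and 236 CPM against 2158 and 5141 CPM (log2 fold change -3.55, SE 0.43, adjusted p = 0.00902), PRF1, perforin, at 56.7 and 28.8 CPM against 160 and 309 CPM (-2.47, SE 0.45, adjusted p = 0.0408), and GZMK at 2.41 and 1.11 CPM against 82.0 and 93.3 CPM, a ratio of 51.2 (17.4 to 249). One of 2 identifiers of GZMA, granzyme A (ENSSSCG00000016902), was at 8.45 and 1.11 CPM against 119 and 430 CPM (-5.87, SE 0.87, adjusted p = 0.0188). Reads may be shared between the 2 neighbouring GZMA identifiers. Of 13 cytotoxic identifiers, 4 were lower and 1 (SRGN) higher without the block, 11 lower with it, and the median log2 fold change was -2.21 against -0.00 over all genes. CD8A itself was at 116 and 37.7 CPM against 472 and 581 CPM (-2.79, SE 0.53, adjusted p = 0.0432). The CD8 αβ gate asks for CD8B and members must lack it, so this difference may follow in part from the choice of cells.

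The 17 cell cycle genes did not pass without the block in this comparison, yet 14 were lower in members with it, at a median log2 fold change of -1.57. All 5 MHC class II genes were lower with the block and 1, SLA-DQB1, without it (92.9 and 49.9 CPM against 187 and 195 CPM, adjusted p = 0.0408). GATA3 (3.50, adjusted p = 0.00239), MAF (3.94, adjusted p = 0.00316) and ID3 (4.71, adjusted p = 0.0188) were the 3 of 16 fate factors called without the block, all higher. With the block 7 of the 16 were higher and 6 lower. Leaving out 1 sum at a time gave 78 and 24 calls without the members of pigs 1 and 2, and 18 and 6 without the CD8 αβ cells of pigs 1 and 2. Monocyte markers summed to 204 and 599.5 CPM in CD8 αβ T cells, with 1 and 0 of 14 at 0, and of the 11 tested 0 were called, and 2 were higher with the block, at a median log2 fold change of 0.68. Their part here was not tested either. These 3 comparisons share the member sums, so their counts are not independent of one another.

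Members were not all alike. Those with a CD8A UMI (55 in pig 1 and 24 in pig 2) held RHEX in 40.0% and 54.2%, whereas those without (243 and 326) held it in 86.0% and 86.2%. Members in which RHEX was at 0 (67 and 56 cells) held NKG7, a granule gene, in 86.6% and 48.2% and GZMB in 68.7% and 39.3%. Members with RHEX (231 and 294) held NKG7 in 35.1% and 38.4% and GZMB in 20.3% and 22.4%. The cells without RHEX were deeper, with median UMIs of 3163 and 2816 against 2045 and 2281.

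Clustering the 648 members by their variable genes gave 6 clusters, described here without tests. Cluster 1 held 59.4% of members in pig 1 and 74.0% in pig 2. It was led by RHEX, ID3, SRGN and BLK, with RHEX in 95.4% of cells, ID3 in 89.2% and CD8A in 4.59%. Cluster 2 held 67 members of pig 1 and 10 of pig 2, that is 22.5% and 2.86%. It was led by CCL5, GNLY, KLRK1 and NKG7, with RHEX in 27.3%, CD8A in 53.2%, KLRK1 in 75.3% and the proliferation gene PCLAF in 48.1%, at a median of 3847 UMIs. Of the 10 members with doublet scores above 0.25, 7 lay in cluster 2 and 3 in cluster 6.

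The smaller clusters also divided by RHEX. Cluster 3 (36 and 15 cells) held RHEX in all cells and was led by LGALS1, S100A11 and ITGB1. Cluster 4 (15 and 31 cells) held RHEX in 21.7% and was led by ISG15, LCK, PLAC8 and IKZF2. Cluster 5 (2 and 29 cells) held RHEX in 80.6% beside the platelet genes PPBP and GP1BB, and cluster 6 (1 and 6 cells) held RHEX in 28.6% and was led by the monocyte genes LYZ and FCN1 at a median of 7860 UMIs. Cluster 5 was almost wholly from pig 2 and cluster 2 mostly from pig 1.

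**Figure D3:**
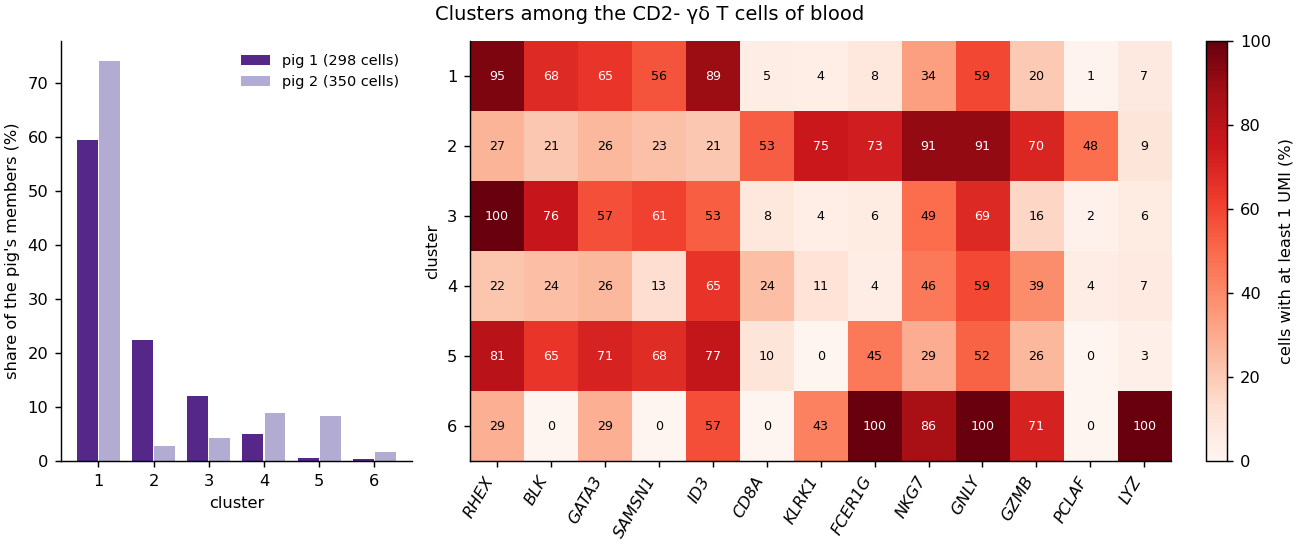
Left, bars give the percentage of each pig's members in each of 6 clusters. Right, each cell of the map gives the percentage of a cluster's cells with at least 1 UMI of the gene. Cluster 1 holds 59.4% and 74.0% of members with RHEX in 95.4% of them, and cluster 2, with RHEX in 27.3%, holds 22.5% of pig 1's members and 2.86% of pig 2's.

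The pigs differed in these effector genes within the members as a whole. CCL5, an effector chemokine, stood at 6648 CPM in pig 1 and 515 CPM in pig 2, GNLY, granulysin, at 3880 and 540 CPM, and KLRK1 at 446 and 22.2 CPM. RHEX and SAMSN1 lay closer together, at 1248 and 1258 CPM and at 314 and 306 CPM. With 1 animal of each label, sex, animal and library cannot be told apart.

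The ileum of the same animals allowed members to be set against CD2- γδ T cells of tissue, 876 cells chosen by the same rule. In the 6 ileal libraries CD2 was also at 0 in 6.87% to 17.5% of CD8 αβ T cells and 11.5% to 22.9% of CD4 αβ T cells. Beside 3104 ileal CD2+ γδ T cells, the 876 may therefore include CD2+ cells whose CD2 was missed. How many did was not tested. The library labelled whole ileum of pig 1, an animal labelled female, held Y-linked transcripts at 206.6 CPM, whereas the other libraries of pig 1 held at most 0.224 and those of pig 2 between 119 and 226. Counts of the main lists are therefore also given without that library. The animal behind it is uncertain, and with it the ileal sum of pig 1 and its pairing with blood.

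CD2- cells made up a larger share of γδ T cells in blood than in ileum. The share was 54.5% in pig 1 and 65.7% in pig 2 in blood, and between 14.2% and 33.4% in the 6 ileal libraries. Averaged per pig it was 60.1% ± 7.91 in blood and 24.0% ± 3.18 in ileum (SD, n = 2 pigs), with no overlap. The difference was 36.0 percentage points, and 34.8 points without the doubtful library. An exact permutation test (two-sided) gave p = 0.33, the smallest p that 2 values against 2 can give. That test ignored that both tissues came from the same 2 pigs. By label, the share was 54.5% in blood against 21.8% in ileum in pig 1 and 65.7% against 26.3% in pig 2. Since a CD2 count of 0 depends on depth, each cell was also thinned to the same UMI number before the rule, which raised the shares to 79.1% and 79.3% in blood and to 44.4% and 45.9% in ileum, a difference of 34.1 points. The share itself thus depended on depth. Thinning does not even out CD2 itself, which stood at 393 and 569 CPM in blood CD2+ γδ T cells and at 796 to 964 CPM in those of the 6 ileal libraries, so a CD2+ cell can be missed more often in blood at the same depth, and the part of this in the gap was not tested.

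**Figure D4:**
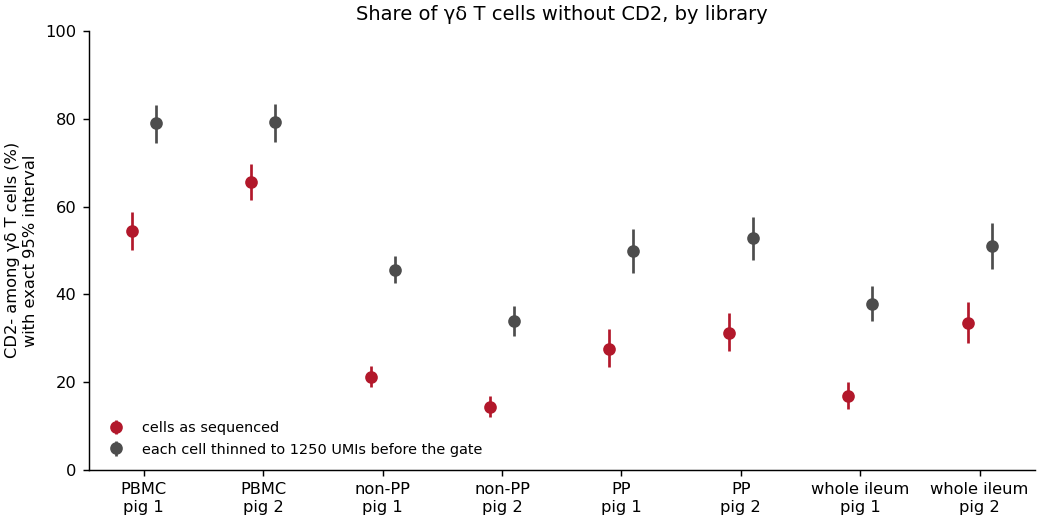
The y axis is the percentage of γδ T cells (CD3E and TRDC, no CD4, CD8B or B cell transcript) with no CD2 UMI in each of the 8 libraries, with exact 95% binomial intervals, for cells as sequenced (red) and after thinning each cell to the UMI minimum of the rule (grey). Both PBMC libraries, at 54.5% and 65.7%, lie above all 6 ileal libraries, and thinning raises all 8.

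Ileal CD2- cells were less uniform in RHEX than members. RHEX was found in 16.9% of them in non-PP ileum of pig 1 and in 42.1% to 48.3% in the other 5 ileal libraries, against 77.5% and 84.0% in blood. GZMB was found in 87.1% and 92.9% of non-PP cells, 39.0% and 56.6% of PP cells and 74.0% and 63.0% of whole ileum cells. Among ileal CD2+ γδ T cells RHEX was found in 0.772% to 3.55%. Both tissues therefore had more RHEX on the CD2- side.

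Between tissues, 594 of 7642 genes (7.77%) were called, 221 higher in blood (2.89%) and 373 lower (4.88%). With the pig as a block 1124 (14.7%) were called, 453 higher (5.93%) and 671 lower (8.78%), and without the library labelled whole ileum of pig 1, 398. Leaving out 1 sum at a time gave 228 and 161 calls without the blood members of pigs 1 and 2, and 188 and 272 without the ileal cells of pigs 1 and 2. RHEX itself was at 1248 and 1258 CPM in blood against 502 and 648 CPM in ileum (log2 fold change 1.07, SE 0.30, adjusted p = 0.0698), and passed with the block (0.0141) and in cells of 2000 to 6000 UMIs (0.0391). BLK was at 315 and 523 CPM against 173 and 258 CPM (0.92, adjusted p = 0.194) and passed with the block (0.00753). SAMSN1 was at 314 and 306 CPM against 264 and 313 CPM (0.05, SE 0.39, adjusted p = 0.96), overlapping between tissues.

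Genes of the homing list called higher in blood included KLF2 and S1PR1. KLF2, the transcription factor that keeps T cells in circulation, was at 529 and 581 CPM against 28.9 and 54.0 CPM (log2 fold change 3.70, SE 0.30, adjusted p = 0.00124). Its target S1PR1, the receptor for exit from tissue into blood and lymph, was at 174 and 194 CPM against 19.0 and 18.9 CPM (3.23, SE 0.42, adjusted p = 0.00522). Of 10 homing genes 3 were higher in blood, these among them, 1 (CXCR4) was lower, and the list's median log2 fold change was 1.37 against -0.00 over all genes. Without the doubtful library the counts were again 3 and 1. The tissues did not overlap for KLF2 or S1PR1.

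Other genes higher in blood included S100A4, a calcium-binding protein of motile cells, at 1683 and 1678 CPM against 93.0 and 105 CPM (log2 fold change 4.04, SE 0.32, adjusted p = 0.0011), and LTB, lymphotoxin β, at 897 and 751 CPM against 107 and 89.9 CPM (3.02, adjusted p = 0.00741). ID3 was at 812 and 1420 CPM against 82.4 and 68.4 CPM (3.85, adjusted p = 0.014) and GATA3 at 317 and 505 CPM against 81.0 and 82.8 CPM (2.29, adjusted p = 0.00455). FUT7 was at 65.2 and 103 CPM in blood against 0.704 and 1.80 CPM, a ratio of 71.3 (23.9 to 350). HBB was at 16709 and 3881 CPM against 3.52 and 16.2 CPM (adjusted p = 0.0345), a red cell transcript concentrated in few members as described above, and S100A12, a neutrophil and monocyte gene at 30.2 and 99.8 CPM, came from 1 and 14 members.

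CXCR4, CCR9 and ITGAE were lower in blood. CXCR4, a chemokine receptor of the homing list, was at 9.65 and 29.9 CPM in members against 306 and 424 CPM (log2 fold change -4.22, SE 0.61, adjusted p = 0.008), CCR9, the receptor that brings T cells to the small intestine, at 10.9 and 19.9 CPM against 154 and 185 CPM (-3.49, adjusted p = 0.0253), and ITGAE, the integrin αE that binds epithelial E-cadherin, at 27.8 and 15.5 CPM against 299 and 165 CPM (-3.47, adjusted p = 0.00355). None overlapped between tissues. CCR9 was the 1 lower of 8 chemokine receptors tested, of which 1 (CCR2, adjusted p = 0.0419) was higher, at a median log2 fold change of -0.12. ITGAE was the 1 lower of 10 integrin and adhesion genes, of which 8 were above 0 and 1, ITGB2, was called higher (299 and 172 CPM against 65.5 and 51.3 CPM, adjusted p = 0.0305), at a median of 0.61. Without the doubtful library CCR2 was not called (adjusted p = 0.096), and the others were.

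Some cytokine and cytotoxic genes were also lower in blood. IL26 was at 2.41 and 0 CPM in members against 161 and 69.3 CPM, a ratio of 105 (28.9 to 872, adjusted p = 0.0219), and IL22 at 0 in both pigs against 27.5 and 98.0 CPM, hence at least 33.9-fold lower (adjusted p = 0.0394, and 0.0545 without the doubtful library). XCL1, a chemokine that draws cross-presenting dendritic cells, was at 51.9 and 23.3 CPM against 370 and 551 CPM (-3.68, adjusted p = 0.00195). Of 14 cytokines and chemokines, 5 were lower and 1 (LTB) higher, at a median log2 fold change of -1.97, and without the doubtful library 2 (IL26 and XCL1) were lower and LTB higher. GZMB was at 392 and 236 CPM against 4937 and 3031 CPM (-3.71, SE 0.30, adjusted p = 0.00124), and 4 of 13 cytotoxic identifiers were lower and 0 higher, with and without that library.

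Immediate early, costimulation and MHC class II genes were also among those lower in blood. Of 10 immediate early genes, 6 were lower and 0 higher, at a median log2 fold change of -2.32, and 3 were lower without the doubtful library. FOS was at 4.83 and 7.76 CPM against 479 and 194 CPM (-5.75, adjusted p = 0.00181) and JUN at 56.7 and 35.5 CPM against 441 and 387 CPM (-3.22, SE 0.23, adjusted p = 0.000717). Ileal cells were released by tissue dissociation and blood cells were not. For these genes and all others of the blood-ileum comparison, that difference in preparation cannot be told apart from the tissue. Of 15 coreceptor and costimulation genes 6 were lower, among them TNFRSF9, the receptor 4-1BB, at 2.41 and 0 CPM against 87.4 and 79.2 CPM, a ratio of 72.8 (19.9 to 605), and without the doubtful library 5 of 14 were. Of 5 MHC class II genes 4 were lower, with and without that library, among them CD74, the invariant chain, at 536 and 513 CPM against 1808 and 1991 CPM (-1.91, SE 0.20, adjusted p = 0.00251).

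The genes with the largest falls were not lymphocyte genes. FABP6, the ileal bile acid binding protein, was at 1.21 and 1.11 CPM in members against 9247 and 3286 CPM, and KRT8, an epithelial keratin, at 0 in both pigs against 492 and 283 CPM, hence at least 232-fold lower. Epithelial markers summed to 2.41 and 3.33 CPM in members, with 5 of the 7 named at 0, and to between 18.3 and 1444 CPM in CD2- cells of the 6 ileal libraries, highest in the non-PP library of pig 1, with KRT8 the most abundant. The part of this epithelial RNA in the other differences was not tested.

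Without the library labelled whole ileum of pig 1, 398 of 7376 genes were called, and 396 of the 594 called at first were among them. Of the 69 list and named genes called, 55 were called also without that library and 14 were not. Those called again included KLF2 (adjusted p = 0.00405), S1PR1 (0.00948), S100A4 (0.0026), CXCR4 (0.0114), CCR9 (0.034), GZMB (0.0026), ITGAE (0.00823), IL26 (0.0409), XCL1 (0.00311), FOS (0.00327), JUN (0.00167) and KRT8 (0.00614). Those lost were IL22 (0.0545), IL10 (0.0881), CCL4 (0.0545), CD69 (0.0565), DUSP1 (0.0568), ZFP36 (0.0739), CCR2 (0.096), IFNGR1 (0.0633), IL6R (0.0568), XBP1 (0.0657), FYN (0.0723), SIT1 (0.0601), SLA2 (0.0568) and ALAS2 (0.0545). These 14 kept their direction at much the same size, the log2 fold change being -2.08 against -2.16 with the library for CD69, -3.02 against -2.88 for CCL4, -2.49 against -2.47 for DUSP1, -1.85 against -2.05 for IL10 and 4.32 against 4.50 for CCR2. RHEX (0.108) again was not called.

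To set like cells side by side, the comparison was repeated with only those CD2- cells of both tissues that held RHEX or BLK, 237 and 313 in blood and between 43 and 74 in each ileal library. Over all genes, 431 of 4785 tested were called, and 311 of the 594 called at first were called again in the same direction. Of 69 list and named genes called at first, 63 could be tested again, 48 were called again and 62 kept their direction. KLF2 (adjusted p = 0.000843), S100A4 (0.000772), GZMB (0.000406), ITGAE (0.00275), IL26 (0.000843), FOS (0.000683) and JUN (1.67e-05) were among those called again. KRT8, at 0 in blood members, was not called (0.102) but kept a large fitted log2 fold change, -8.16 against -12.69 before. CD6, the costimulatory scavenger receptor, was the gene whose direction changed, from a log2 fold change of -2.22 (adjusted p = 0.0184) to 1.02 (adjusted p = 0.64).

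**Figure D5:**
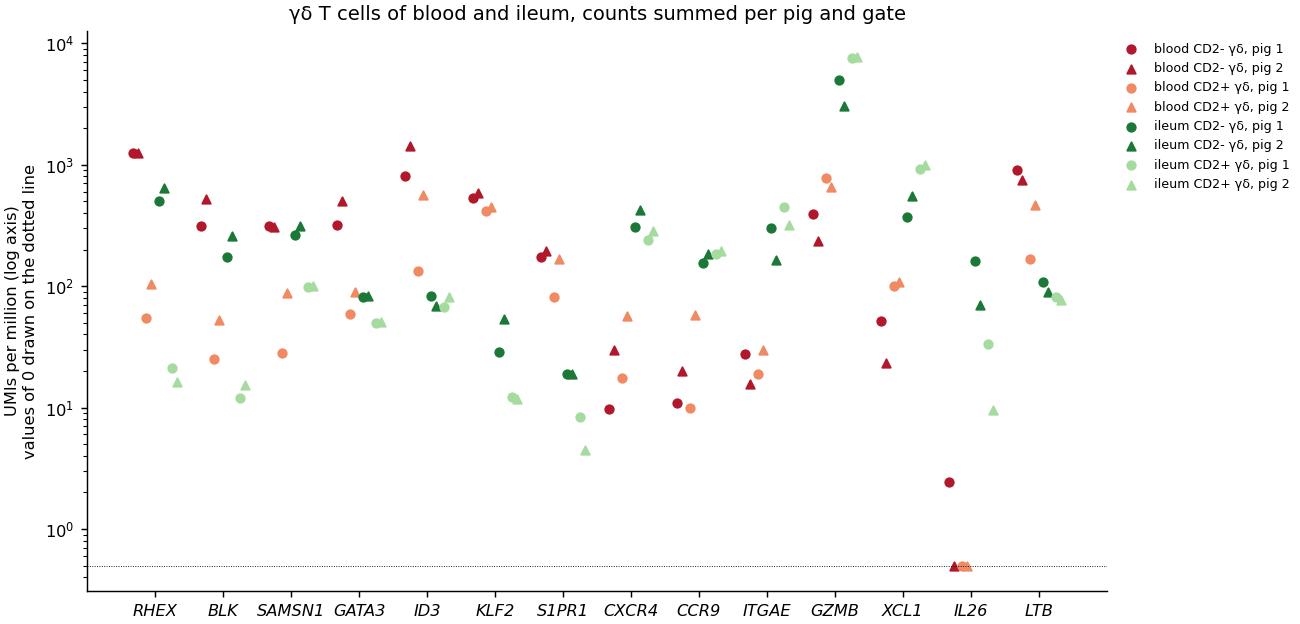
The y axis is the level of 14 genes in CPM on a log axis, with values of 0 drawn on the dotted line, for CD2- and CD2+ γδ T cells of blood and ileum, circles for pig 1 and triangles for pig 2, counts summed per pig and gate. KLF2 and S1PR1 lie higher in blood and CXCR4, CCR9 and ITGAE lower for CD2- cells (529 and 581 CPM of KLF2 against 28.9 and 54.0 CPM), while RHEX and BLK lie higher in CD2- than CD2+ cells of both tissues.

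Whether these tissue differences were particular to the CD2- cells was tested by comparing them with the same contrast in CD2+ γδ T cells. By edgeR 0 of 7642 genes passed, with 488 at an unadjusted p under 0.05, and with the pig as a block again 0, with 778. DESeq2 called 5 of 3345, which are named here after their values were seen. They were ITM2B (adjusted p = 0.00413 by DESeq2, difference of log2 fold changes 1.502 by edgeR), RCAN3 (0.0109, 2.15), CAPG (0.0456, 1.26), ANXA2 (0.0417, -2.29) and PYCARD (0.0417, -2.81). A positive difference means that the log2 fold change of blood over ileum was higher in CD2- than in CD2+ cells. ITM2B was at 929 and 1183 CPM in blood and 831 and 837 CPM in ileum among CD2- cells. Among CD2+ cells ITM2B was at 400 and 467 CPM in blood and 929 and 1018 CPM in ileum, so its larger step was there. GATA3 was at 58.9 and 88.7 CPM in blood CD2+ cells against 49.2 and 50.4 CPM in ileal CD2+ cells, a smaller step than in CD2- cells, but the difference of 1.78 (SE 0.40) had an adjusted p of 0.724. S100A4 was at 1219.7 and 1045 CPM in blood and 34.9 and 18.4 CPM in ileum among CD2+ cells, and the difference of its log2 fold changes was -1.32 (SE 0.40, adjusted p = 0.751). By edgeR, with or without the block, no tissue difference was thus shown to be particular to CD2- cells, and the 5 DESeq2 calls had adjusted p = 0.724 by edgeR without it.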

How the data were processed

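The deposited files held raw UMI counts per gene for every droplet barcode, which the authors made with Cell Ranger (version 4.0.6 in the submitters' processing notes) on Sus scrofa 11.1 from 10x Chromium v2 3' libraries, before any removal of free RNA, poor cells or doublets. Gene symbols came from the files (17733 identifiers), a name table (977) or the study's supplement (11), and 7159 of 25880 stayed unnamed. No doublets were removed in the main analysis, and doublet scores above 0.25 were removed as an alternative. The 4 runs of a library had been pooled by the authors.

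UMI counts were summed per gate and pig (8 sums in each fit), filtered with filterByExpr, scaled by TMM, and tested with edgeR 4.0.16 (quasi-likelihood, R 4.3.3) with Benjamini-Hochberg adjustment at 0.05. DESeq2 1.42.0 was an alternative. The blood fit held 4 gates, and the tissue fit both γδ gates of both tissues, with 6 ileal libraries summed per pig. Gates of one pig come from the same animal, so the pig was also fitted as a block. Deviations of same-pig sums correlated at 0.45 to 0.566 in blood and 0.15 to 0.525 in the tissue fit. Members were clustered with Leiden (resolution 0.5, scanpy 1.11.5) on 2000 variable genes.

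The members and the 27 gene lists were chosen with earlier results of these data known. Named genes were the gate genes, RHEX, BLK, SAMSN1 and IL26, the called genes with symbols, at least 20 CPM in both pigs of the higher gate and the same direction in both pigs that had the 12 largest changes each way (6 in the other comparisons), and leading members of each list. Counts were also simulated from a mean profile shared by all sums of a fit, with the real sizes and a fixed dispersion (spread between sums) of 0.05. On these the step recovered 17% of 2-fold and 80% of 4-fold changes among 6867 genes for the CD2- against CD2+ comparison, with 3 false calls. For blood against ileum it recovered 16% and 74% among 7380, with 2. The simulation left out genes of low counts and the other differences between gates and pigs. Its figures therefore do not measure recovery or false calls in the real sums. No sequences are shown because none were used here. One gene of the lists is not reported here by name.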

Additional observations from a re-analysis of the deposited data

Results flagged for a closer look

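Barcodes of blood below the UMI limit of the rule, which enter no comparison, carried RHEX where they had the members' gene pattern. In the PBMC library of pig 1 there were 8 such barcodes and RHEX was found in 62.5% of them (5 of 8, 95% exact interval 24.5 to 91.5), and in pig 2 there were 6 and RHEX was found in 100% (54.1 to 100). Barcodes under the same limit with the B cell pattern held it in 0 of 26 (interval up to 13.2%) and 0 of 3 (up to 70.8%). Their median depths were 1088 and 732 UMIs, against 997.5 and 1136.5 for the members' pattern. In the ileal libraries barcodes under the limit with the members' pattern held RHEX in 5 of 66 and 0 of 20 of non-PP ileum, 2 of 11 and 2 of 10 of PP ileum and 2 of 25 and 0 of 13 of whole ileum of pigs 1 and 2. Y-linked transcripts stood at 206.6 CPM in the library labelled whole ileum of pig 1, an animal labelled female, against 0 in that pig's PBMC library.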

How the results depend on the processing

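Only 2 pigs stood behind each value, and in simulated data most 2-fold changes were missed. For CD2- against CD2+ cells, where the main analysis called 14 genes, 11 were called in cells of 2000 to 6000 UMIs (6 of the 14 among them), 22 when CD2+ cells needed 2 CD2 UMIs, 52 by DESeq2, 408 without the filter on low counts (174 higher, 234 lower) and 1 to 34 with 1 sum left out. For CD4 αβ T cells (89), cells of 2000 to 6000 UMIs gave 58, DESeq2 144, no filter 578 and 1 sum left out 2 to 21. For CD8 αβ T cells (137), DESeq2 gave 211, no filter 908 and 1 sum left out 6 to 78. For blood against ileum (594), no filter gave 1336, a sum for each ileal library 1072 and 1 sum left out 161 to 272, and for the difference between γδ kinds (0), DESeq2 gave 5, no filter 114 and 1 sum left out 0 to 1, the 1 without the blood CD2+ cells of pig 2. Limiting cells to 2000 to 6000 UMIs left 416 members. With the pig as a replicate block, that is paired by animal, the counts were 312, 541, 1115, 1124 and 0. Of the genes named by size of change, 5 of 12, 8 of 12, 11 of 12 and 6 of 12 were called in every setting other than those leaving out a sum, in the order of the comparisons above. CD6, called lower in blood than in ileum (log2 fold change -2.22, adjusted p = 0.0184), was at 1.02 (adjusted p = 0.64) when cells had to hold RHEX or BLK. The cause of each change was not tested.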
